A study of Mus musculus with 1183 samples.

Results

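The 10 genes described here belong to the major histocompatibility complex (MHC) class II presentation pathway and were read in single immune cells of the neonatal mouse lung. They were taken by symbol from a count table of 18072 genes, in which all 10 members were found: Cd74, H2-Aa, H2-Ab1, H2-Eb1, H2-DMa, H2-DMb1, H2-DMb2, H2-Oa, H2-Ob and Ciita. The series holds 1183 cells from distal lung, all taken on postnatal day 7 from 2 mice kept in hyperoxia, a female (598 cells) and a male (585 cells). No untreated mouse is among the samples analysed here, the labels name no strain, and they give no genotype. The labels sort the cells into 16 subtypes: DC I to DC III, Mac I to Mac V, B cell, T cell, NK cell, IL cell, neutrophil, basophil, mast cell and mast cell II. Mac I is a single male cell and entered no comparison. In the GENCODE M21 annotation (GRCm38) the H2 genes lie on chromosome 17 between 34092340, the start of H2-Oa, and 34316674, the end of H2-Eb1, while Cd74 lies on chromosome 18 and Ciita on chromosome 16 from 10480059 to 10528418.

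MHC class II molecules are pairs of an alpha and a beta chain that carry peptides from the endosome to the cell surface, where CD4+ T cells read them. In mice H2-Aa and H2-Ab1 encode the chains of I-A, and H2-Eb1 the beta chain of I-E. Cd74 is the invariant chain that fills the groove until the endosome. H2-DMa with H2-DMb1 or H2-DMb2 forms H2-DM, which exchanges the invariant chain remnant for peptide, and H2-Oa with H2-Ob forms H2-DO, an inhibitor of H2-DM. Ciita is the transactivator that is recruited to the promoters of these genes by factors bound at their X and Y boxes. Dendritic cells and B cells are known for constitutive class II expression, whereas many macrophages carry little of it unless stimulated.

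The boxes can be read in the members' promoters, which is why the stretches around the Y box are shown. RefSeq promoters (GRCm38.p6, 250 bases before to 50 after the start site) were at hand for 7 of the 10 genes, not for Cd74, H2-Ab1 or Ciita. The search, on both strands, used the Y box word TGATTGG, the X box word AGCAAC and the X2 word ATGATGC, which do not overlap in the stretches printed, and which were chosen with these promoters in view. The Y box word stood in 6 of the 7 genes and in 7.23% of all 32851 promoters. The X box word stood in 3 of the 7 genes against 12.2% of all promoters, and the X2 word in 4 of the 7 against 1.99%. Capitals mark the words, and each stretch reads 5′ to 3′ on the strand of its gene. The first lies at chr17:34287855-34287925 (minus strand), the second at chr17:34305754-34305824, the third at chr17:34145105-34145175, the fourth at chr17:34092282-34092352 and the fifth at chr17:34238794-34238864 (all plus strand).
H2-Aa: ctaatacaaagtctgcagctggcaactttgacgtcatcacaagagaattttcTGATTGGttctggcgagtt
H2-Eb1: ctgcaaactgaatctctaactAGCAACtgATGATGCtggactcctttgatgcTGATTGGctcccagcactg
H2-DMb2: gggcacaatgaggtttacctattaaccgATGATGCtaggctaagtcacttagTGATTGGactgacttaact
H2-Oa: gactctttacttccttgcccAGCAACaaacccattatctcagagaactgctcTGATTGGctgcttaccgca
H2-Ob: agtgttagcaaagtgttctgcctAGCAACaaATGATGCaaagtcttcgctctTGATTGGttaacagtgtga
The Y box word began 50 bases before the start site in H2-Aa, 61 in H2-Eb1, 92 in H2-DMb2, 45 in H2-Oa and 59 in H2-Ob. Between the X box word and the Y box word lay 25 bases in H2-Eb1, 26 in H2-Oa and 23 in H2-Ob, so the spacing varied little among the 3 genes that hold both. H2-DMb1 held the Y box word 63 bases before its start and the X2 word 17 bases further up, the same 17 bases as in H2-DMb2. Neither of the 2 H2-DMa entries held any of the 3 words, which says only that these letters are absent from those windows. A match is a description of letters and not of binding.

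Levels are in CPM (counts-per-million, read counts scaled by the reads assigned to genes), either in a cell or in a library summed over all cells of a subtype in an animal. The animal is the replicate, so every level has n = 2. Cells held 16753 to 7560179 reads (median 1100966), and the 30 summed libraries of the 15 subtypes with at least 5 cells per animal held 6024429 to 235566546. The reads carry no molecular identifiers, so intervals on shares of cells cover counting error only. The labels do not say how subtypes were assigned. If expression in these same cells was used, p-values between subtypes are too small. Checked against 4 marker genes per subtype, the labels mostly matched: in 13 of the 15 subtypes all 4 exceeded 50 CPM in both animals. The exceptions were NK cell with 3 and mast cell II with 2, and none of the mast cell II markers was highest in that subtype. Outside the B cells, 5 of 1118 cells carried all 4 B cell markers (2 Mac IV cells, and 1 each of mast cell, neutrophil and DC III), and all 5 were rich in class II chains. Left out, they changed Cd74 in Mac IV from 2128 and 722 CPM to 2125 and 719, and H2-Aa from 2136 and 540 to 2139 and 531. In male DC III cells Cd74 went from 2224 to 2129 CPM and H2-Aa from 9162 to 9587. Where these cells held most of a member's reads, that is said beside its value.

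**Figure D1:**
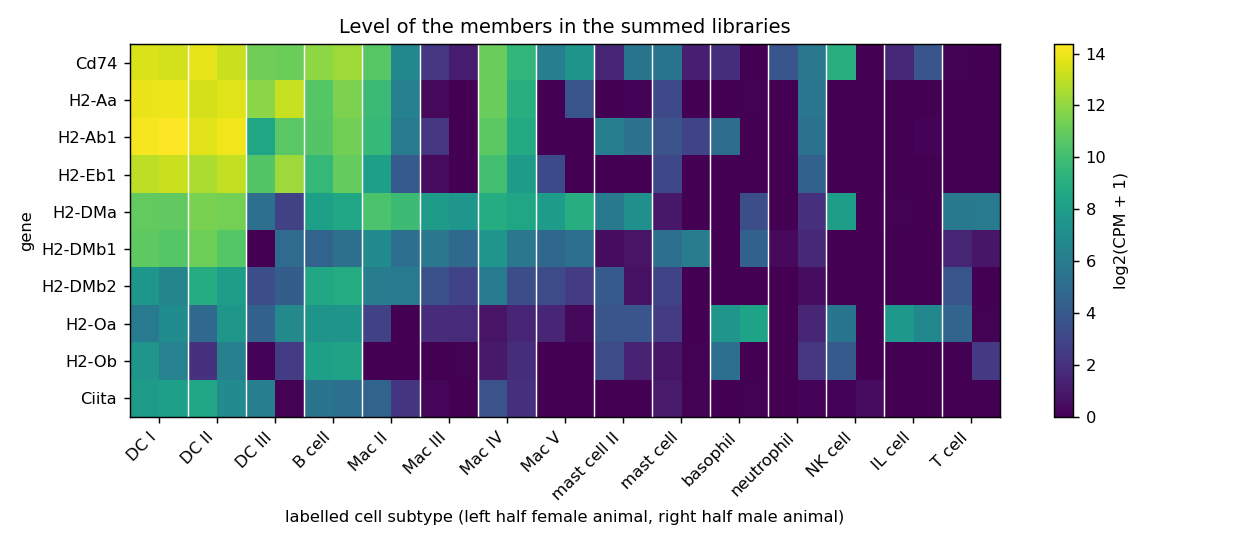
Level of the 10 members (rows) in the summed library of each labelled subtype (columns, female animal left and male animal right), as log2(CPM + 1). The DC I, DC II and B cell columns are bright in most rows and those of DC III in fewer. H2-DMa is bright also in the macrophages, and H2-Oa also in basophils and IL cells.

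The invariant chain and the 3 peptide-binding chains were highest in the DC I and DC II cells. For Cd74 the level was 14616 CPM in female and 9503 in male DC II cells (12060 ± 3615, SD, n = 2), and 11897 and 10558 in DC I cells (11228 ± 947). DC I and DC II thus overlapped for Cd74. B cells followed with 3866 and 5140 CPM, then DC III cells with 2468 and 2224, and each of these subtypes lay wholly below the one before. Mac IV reached 2128 and 722 CPM and Mac II 1562 and 102.4, so in both macrophage subtypes the female animal was the higher. In the remaining subtypes with cells of both animals Cd74 stayed at 170.6 CPM or less, apart from 543 CPM in the female NK library, which came from 1 of 5 cells. The 170.6 CPM was that of male Mac V, where 1 cell held 64.4% of the reads. The single Mac I cell held 2060 CPM.

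H2-Aa, the I-A alpha chain, separated the dendritic subtypes more clearly. Its level was 15948 and 16226 CPM in DC I (16087 ± 196.5), 11188 and 12885 in DC II (12037 ± 1200) and 3676 and 9162 in DC III (6419 ± 3879), female first, with no overlap between neighbours. B cells held 1546 and 2911 CPM and Mac IV 2136 and 540, which overlapped. H2-Eb1 followed the same order, from 7980 and 9356 CPM in DC I and 6236 and 8517 in DC II, which overlapped, to 1463 and 4834 in DC III, 756 and 1986 in B cells and 1065 and 247.7 in Mac IV.

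H2-Ab1, the partner chain of H2-Aa, had another order. It reached 18499 and 21123 CPM in DC I (19811 ± 1855) and 13305 and 16901 in DC II (15103 ± 2543). In DC III it was 346.4 and 1630 CPM (988 ± 907), a level that overlapped that of B cells (1465 and 2496) and of Mac IV (1739 and 443). T cells, NK cells and IL cells held next to none of the 3 chains: H2-Aa and H2-Eb1 had 0 reads in all 3 subtypes, and H2-Ab1 reached 0.121 CPM in the male IL library alone. The heat map of members by library shows the gap.

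Cell by cell, a cell was counted as class II rich at 200 CPM or more of H2-Aa, H2-Ab1 and H2-Eb1 together. All 40 DC I cells were (exact Clopper-Pearson 95% interval 91.2% to 100%), as were 23 of 25 DC II cells and 21 of 22 DC III cells. Of the B cells 47 of 65 were (72.3%, 59.8% to 82.7%). The macrophages were divided: 17 Mac IV cells, 8 of 47 Mac II cells, 1 of 66 female and 1 of 45 male Mac V cells and 1 of 390 Mac III cells reached that value. None of 46 T cells did, which allows a share of up to 6.52% (an approximate limit, not the exact interval), and none of 12 NK cells or 14 IL cells. The remaining class II rich cells were 2 basophils and 1 each of mast cell, mast cell II, neutrophil and Mac I, of which the mast cell and the neutrophil carried all B cell markers.

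**Figure D2:**
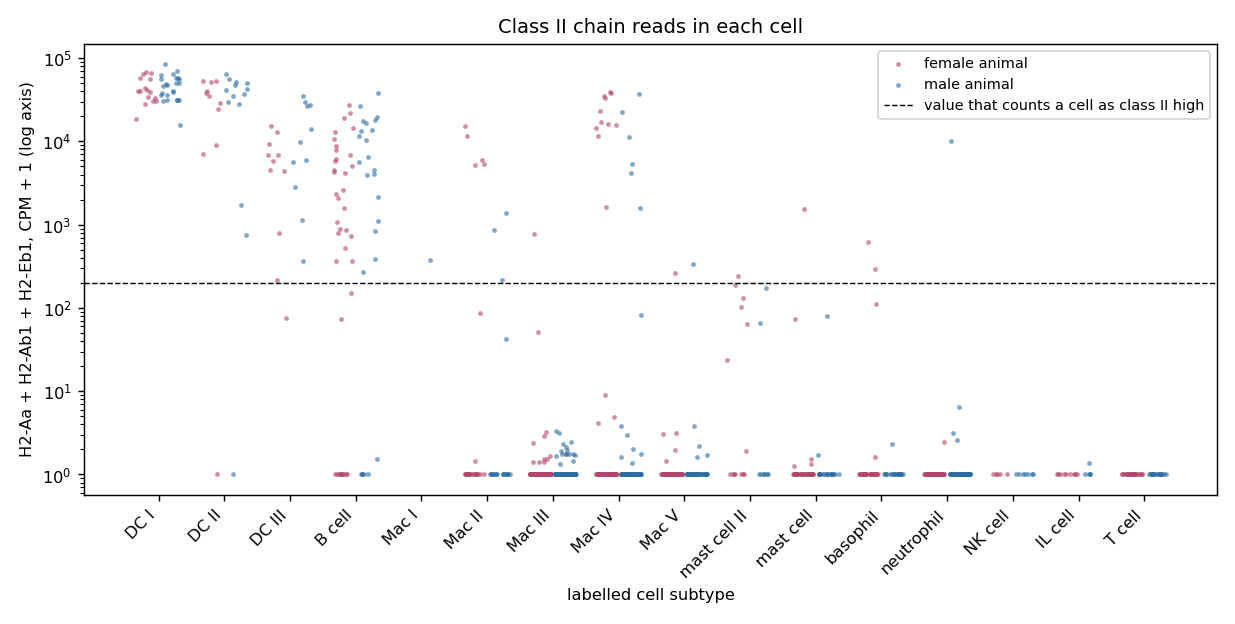
Sum of H2-Aa, H2-Ab1 and H2-Eb1 in each of the 1183 cells (1 point a cell, CPM + 1 on a log axis) by labelled subtype and animal, with a dashed line at the 200 CPM that counts a cell as class II rich. DC I cells form 1 band from 15726 CPM up, B cells spread over the whole range, and Mac IV cells fall into a large group at or near 0 and 17 cells from 1580 CPM up.

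Within Mac IV, a macrophage subtype marked by the complement genes C1qa, C1qb and C1qc, the chains were carried by a few cells. Of the 63 female cells 11 were class II rich (17.5%, interval 9.05% to 29.1%). Of the 79 male cells 6 were (7.59%, interval 2.84% to 15.8%), and the mean share was 12.5% ± 6.98 (SD, n = 2). Without the 2 Mac IV cells that carry all B cell markers it was 15 of 140 over both animals (10.7%), beside 11.97% with them. Those 17 cells held 99.98% of the chain reads of Mac IV. Their chain sum ran from 1580 CPM to 39584 CPM with a median of 16206, and no Mac IV cell lay within 2-fold of the 200 CPM value. The share was 19.4% and 15.6% on the 2 female plates and 8.11% and 7.32% on the 2 male plates, and the intervals of the 2 animals overlapped. Thinning every cell to 100000 reads left 11 and 6 cells, all of them among the 17.

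All 17 class II rich Mac IV cells carried all 4 Mac IV markers at 50 CPM or more, and median C1qa was 5307 CPM in them and 4419 CPM in the other Mac IV cells. As these groups were made from class II itself, they are described and not tested. H2-DMa reached 50 CPM in 17 of the 17 cells and in 58 of the others, H2-DMb1 in 13 and in 21, and Ciita in 4 and in 1. Cd74 was not confined to the class II rich cells: 44 of the others held 50 CPM or more of it, up to 704 CPM. The chemokine receptor gene Ccr2 was detected in 10 of the 17 and 9 of the others, and Lyve1, a gene of perivascular macrophages, in 1 of the 17 and 48 of the others. Of other subtypes' 4 markers, all were detected together in 2 of the 17 for B cells, 1 of the 17 for DC I and none for DC II or DC III. Of the single DC II markers, Cd209a was detected in none of the 17 and 1 of the others, Itgam in 12 and 43, Clec10a in 6 and 30 and Mgl2 in 5 and 27. The part of such cells in the class II levels of Mac IV was measured only by leaving out the 5 cells with all B cell markers.

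Mac II was divided as well, with 5 of 27 female cells (18.5%) and 3 of 20 male cells (15%) class II rich, 16.8% ± 2.49 (SD, n = 2). The female cells ran from 5148 to 15410 CPM of the chains and the male cells from 213.1 to 1397, so the 2 animals did not overlap. The summed Mac II libraries differed in the same direction, with 886 CPM of H2-Aa in the female and 77.6 in the male. All 5 female cells came from the second of the 2 female plates, which held 18 of the 27 cells, and none of the 9 cells on the first plate, from another sequencing run, reached the value. Ccr2 was detected in all 8 class II rich Mac II cells and in 27 of the other 39. In Mac V, marked by Ly6c2 and Plac8, the 2 class II rich cells held 263.7 and 332.03 CPM and both lay near the value.

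**Figure D3:**
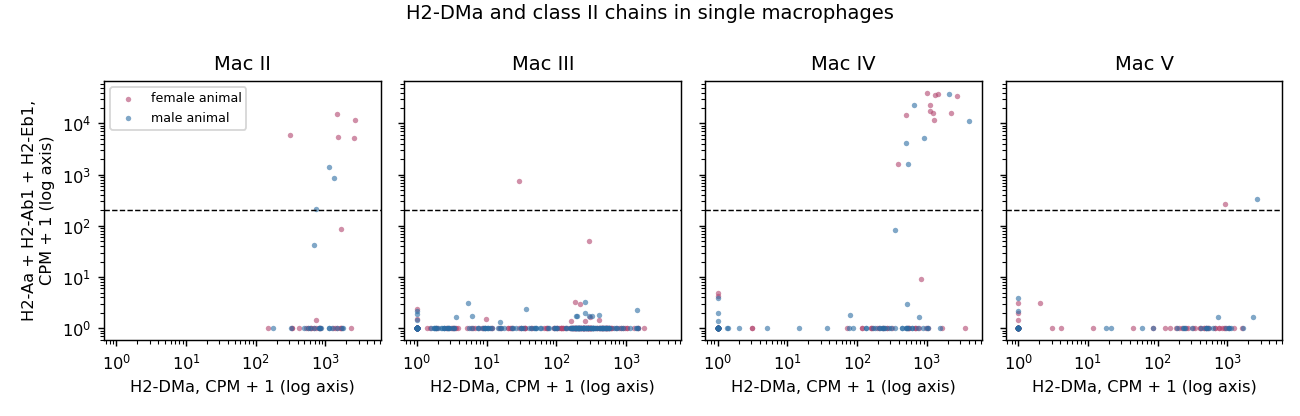
H2-DMa (horizontal, CPM + 1) against the sum of H2-Aa, H2-Ab1 and H2-Eb1 (vertical, CPM + 1), both on log axes, for each Mac II, Mac III, Mac IV and Mac V cell by animal, with a dashed line at 200 CPM. Many cells with far more than 50 CPM of H2-DMa lie on the floor of the chain axis, and in Mac II every cell holds H2-DMa.

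H2-DMa, the alpha chain of the peptide exchange factor, was spread far more widely than the chains it serves. It was highest in DC II (2813 and 2682 CPM, 2748 ± 92.5) and DC I (1919 and 1823, 1871 ± 67.5), and Mac II came next with 1257 and 936 CPM (1097 ± 227.1). Each of these lay wholly above the next. Mac IV (467 and 346.03), Mac V (243.9 and 501) and B cells (274.2 and 358.8) overlapped, and Mac III held 227.6 and 189.5 CPM. All 47 Mac II cells carried 50 CPM or more of H2-DMa, although 39 of them were not class II rich. In Mac III 53.6% of the 390 cells did, and none of those was class II rich. In Mac V 47 of the 49 cells with H2-DMa lacked the chains at that value. In the annotation H2-DMa shares sequence with Brd2 on the other strand, and the assay does not mark strand, so reads from the shared stretch cannot be told apart. Brd2 itself held 186.5 and 125.4 CPM in Mac II and 149.97 and 139.01 in Mac III. In neutrophils it held 222.9 and 125.7 CPM, beside 0.0237 and 2.95 of H2-DMa. The part of Brd2 reads in the H2-DMa levels was not tested.

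The 2 beta genes of H2-DM divided the DC I and DC II cells from the B cells. Their longest transcripts are 1404 bases for H2-DMb1 and 1483 for H2-DMb2, so their reads can be set side by side. H2-DMb2 made up 94.4% and 92.3% of the reads of both genes in B cells (female, male). Its share was 9.61% and 5.74% in DC I and 16.7% and 14.1% in DC II, which did not come near the B cells. In Mac III the share was 18.7% and 17.8%, and in Mac IV it was 24.9% and 16.6%. DC III held few reads of either gene, with shares of 100% (all of its 100 female reads) and 36.7%. In the male 99.3% of its H2-DMb2 reads came from the cell with all B cell markers.

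By level, H2-DMb1 held 2375 and 1523 CPM in DC II and 1755 and 1509 in DC I, and 22.4 and 37.8 in B cells. H2-DMb2 held 381.1 and 453 CPM in B cells, 475 and 250 in DC II and 186.6 and 91.96 in DC I, so B cells and DC II overlapped. At 50 CPM or more, 21 of 39 female and 12 of 26 male B cells held H2-DMb2 alone, and 1 female cell held H2-DMb1 alone. The 2 transcripts share part of their sequence: 19.1% of the 75-base runs of H2-DMb1 stand in H2-DMb2, so reads from those stretches may have been dropped or assigned to either gene, and the read length is not given in the sources used here.

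**Figure D4:**
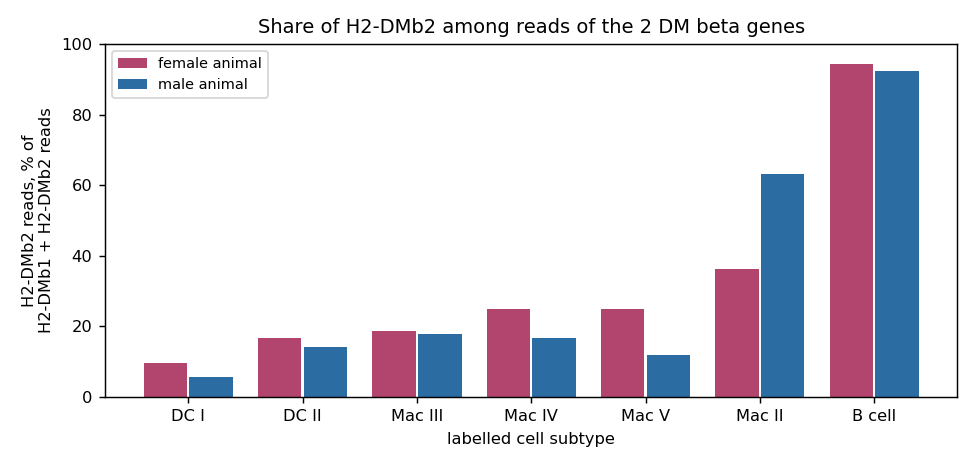
Share of H2-DMb2 among the reads of H2-DMb1 and H2-DMb2 together (percent, bars from 0) in 7 subtypes, 1 bar per animal. The B cell bars stand at 94.4% and 92.3% and the DC I bars at 9.61% and 5.74%.

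The H2-DO genes, which encode the inhibitor, had different ranges. H2-Ob was highest in B cells (272.5 and 307.6 CPM, 290 ± 24.8), then DC I (181.1 and 81.5), and DC II held 3.18 and 75.8. In all macrophage libraries H2-Ob stayed at 2.65 CPM or less. In Mac IV, 69.8% of its female and 99.7% of its male reads came from the 2 cells with all B cell markers. Female basophils held 37.6 CPM of H2-Ob (5 of 34 cells) while male basophils had 0 reads. H2-Oa was found in B cells (169.4 and 173.7 CPM), DC I (61.03 and 125.6), DC II (29.5 and 192.004) and DC III (21.1 and 107.6), and these subtypes overlapped except that B cells lay above DC I and DC III. Its highest level, though, was in basophils, with a female level of 178.5 CPM and a male level of 321.5 (249.97 ± 101.1), above both B cell libraries. That order depended on the weighting: as a mean over cells H2-Oa was 309.01 CPM in B cells and 240.1 in basophils. The B cell mean drew on 1 male cell at 6547 CPM, while the median male B cell held 0.328. In the shared sequencing run the female basophils held 124.1 CPM and the female B cells 177.9, the males 321.5 and 173.7. The means of the animals in that run were 222.8 CPM in basophils and 175.8 in B cells. IL cells reached 204.3 and 103.9 CPM. Those levels came from 21 of 53 basophils and 5 of 14 IL cells, and only 1 of those 21 basophils was class II rich. BC051537, annotated on the other strand over H2-Oa, reached 1.12 CPM or less in the basophil libraries and 0.414 or less in those of IL cells.

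Ciita, the transactivator, was highest in DC I and DC II, as the chains were, but stood in another order below them. It held 229.3 and 278.8 CPM in DC I (254.03 ± 34.97), 361.2 and 122.4 in DC II (241.8 ± 168.8), 44.6 and 36.8 in B cells and 24.2 and 3.58 in Mac II. Mac IV had 11.8 and 2.96 CPM, so that it overlapped Mac II, and Mac III, Mac V, T cells, IL cells and neutrophils 0.196 or less. Within the class II rich cells it was detected at 50 CPM in 31 of 40 DC I cells (77.5%, exact Clopper-Pearson 95% interval 61.5% to 89.2%), 12 of 23 DC II cells and 10 of 47 B cells (21.3%, 10.7% to 35.7%). In DC III it was 1 of 21, and that female cell held 96.4% of the Ciita reads of its library, 70.04 CPM against 0.0639 in the male. No B cell or dendritic cell below the class II value had a single read of Ciita.

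The DC III cells, marked by Ccr7 and Fscn1 and hence by genes of migrating dendritic cells, kept some members and lacked others. H2-DMa was 37.7 and 6.004 CPM in DC III, against 1823 to 2813 in DC I and DC II, and it was detected in 3 of 22 DC III cells but in all 40 DC I and all 25 DC II cells. The log2 fold change was -6.52 (SE 2.33) with an adjusted p of 0.0918 by edgeR's quasi-likelihood test, and DC III was lower in both animals. H2-DMb1 was 0 and 31.4 CPM against 1509 to 2375 (adjusted p = 0.0629, edgeR), again without overlap. H2-Ab1 was 346.4 and 1630 CPM against 13305 to 21123, a log2 fold change of -3.73 (SE 2.09, adjusted p = 0.306), and 1 female cell held 88.9% of its reads in the female library. H2-Aa fitted at -0.75 (SE 1.78) and H2-Eb1 at -0.96 (SE 1.96), and all their libraries too lay below those of DC I and DC II.

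H2-Ab1 was detected in fewer DC III cells than H2-Aa in both animals, but the 2 chains were uncorrelated in the female alone. In the female 9 of 11 DC III cells held 50 CPM or more of H2-Aa and 4 held H2-Ab1. In the male all 11 held H2-Aa and 7 held H2-Ab1. Across cells the Spearman correlation of the 2 chains was 0.09 in female and 0.77 in male DC III cells (11 cells each), against 0.76 and 0.70 in DC I and 0.89 and 0.80 in DC II. These correlations describe cells of 1 animal that share a library preparation.

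None of the 10 members passed in DC III against the average of DC I with DC II by edgeR with the spread estimated over all 15 subtypes, where 7.22% of the 15600 genes tested passed. At an unadjusted p under 0.05 there were 2 members, against 22.7% of all genes. DESeq2 passed 2, H2-DMa and H2-DMb1, against 24.8% of all genes. With only the 3 subtypes in the fit, edgeR passed 4, Cd74, H2-Ab1, H2-DMa and H2-DMb2, against 5.05%. All libraries of DC III lay below all of the others in 8 members, against 18.2% of all genes, the exceptions being H2-Oa and H2-Ob. All 73 male DC III reads of H2-Ob (4.66 CPM) came from the cell with all B cell markers. Without that cell DC III held 0.0996 and 0 CPM of H2-Ob, below the lowest DC I or DC II library (3.18). The median log2 fold change was -3.18 over the members and -0.41 over all genes.

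**Figure D5:**
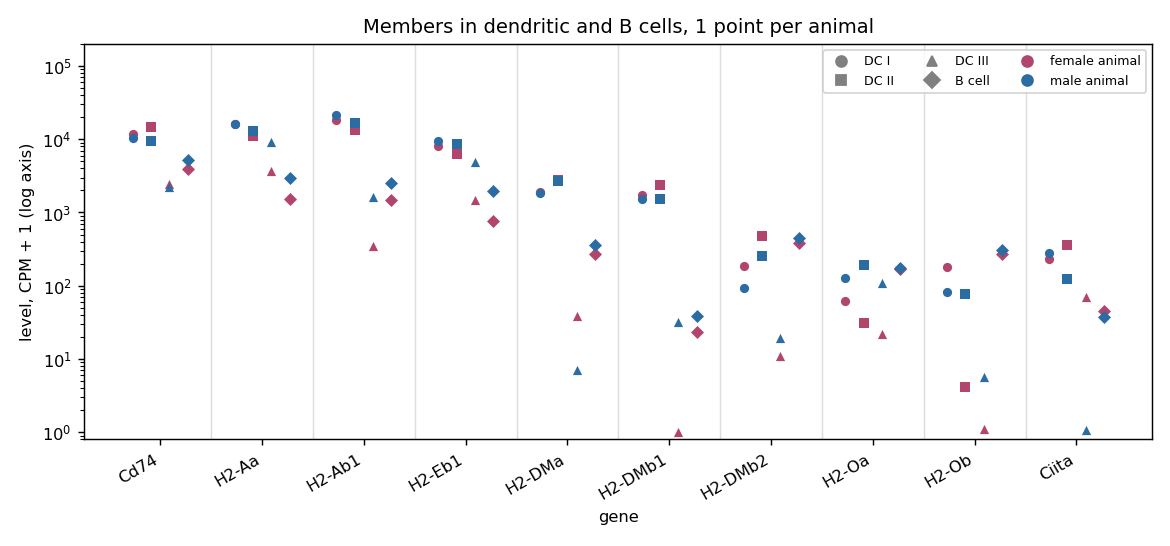
Level of each member (CPM + 1, log axis) in DC I, DC II, DC III and B cells, 1 point per animal, with symbols for subtype and colours for animal. The female DC III point lies farthest below DC I and DC II in H2-DMb1, and the male point in H2-DMa, followed by Ciita. B cells lie above DC I and DC II in H2-Ob.

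Between DC I and DC II, H2-Aa, H2-Ab1 and H2-Ob were higher in both DC I libraries and H2-DMa and H2-DMb2 lower, and the others overlapped. Of all genes 13.9% were higher in both DC I libraries. The differences lay within the error of the test, with log2 fold changes of 0.56 (SE 2.00) for H2-Aa and -1.27 (SE 1.90) for H2-DMb2. By edgeR 0 members passed, against 0.244% of all genes, and 0 had an unadjusted p under 0.05, against 8.97%. DESeq2 passed 0 members against 7.31% of genes, and edgeR with these 2 subtypes alone 0 against 0.411%. All DC I libraries were below all DC II libraries in 2 members and in 16% of all genes.

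B cells held less of 7 members than every DC I and DC II library, against 6.61% of all genes: Cd74, H2-Aa, H2-Ab1, H2-Eb1, H2-DMa, H2-DMb1 and Ciita. H2-Ob was above all of them, as were 17% of all genes, while H2-DMb2 and H2-Oa overlapped. H2-DMb1 stood farthest off, with a log2 fold change of -6.17 (SE 2.02) and an adjusted p of 0.134 by edgeR. Over the members 0 passed by edgeR, against 1.10% of genes, and 1, H2-DMb1, had an unadjusted p under 0.05, against 14.8%. DESeq2 passed that gene alone, against 10.3% of genes. With B cells, DC I and DC II alone in the fit, edgeR passed 6 members against 2.45% of genes: H2-Aa, H2-Ab1, H2-Eb1, H2-DMa, H2-DMb1 and Ciita. The median log2 fold change was -2.86 over the members and 0.13 over all genes.

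B cells were divided too, and Cd74 was less so than the chains. The 18 B cells below the class II value had 0 reads of H2-Aa and H2-Eb1, yet 11 of them held Cd74 at 50 CPM or more, with a median of 1156 CPM over the 18 against 5570 in the 47 class II rich cells. All 4 B cell markers were detected in 10 of the 18 and 42 of the 47. The proliferation gene Mki67 was detected in 9 of the 18 and 13 of the 47, and Igll1, a gene of pre-B cells, in 2 of the 18 and 2 of the 47. Across B cells H2-Aa ran with H2-Ab1 (Spearman 0.87 in both animals, 39 and 26 cells) and with H2-DMb2 (0.66 and 0.72), and Cd74 with depth at -0.25 and -0.21.

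Among macrophages, Mac III, marked by Marco and Pparg, was set against Mac IV. H2-Aa was 0.268 and 0.0170 CPM in Mac III against 2136 and 540 in Mac IV, and Cd74 3.82 and 1.13 against 2128 and 722. The groups lay far apart in both animals. Female Mac III held 56 reads of H2-Aa, 87.5% of them from 1 cell, and male Mac III held 4, so the fold of H2-Aa rests on few reads. The fitted log2 fold change was -9.11 (SE 2.66, adjusted p = 0.236, edgeR) for Cd74 and -13.12 (SE 3.27, adjusted p = 0.138) for H2-Aa. For H2-DMa it was -0.91 (SE 1.89), with 227.6 and 189.5 CPM in Mac III and 50 CPM or more in 53.6% of its 390 cells. By edgeR 0 members passed, against 0.263% of genes, and 5 had an unadjusted p under 0.05, against 7.89%. DESeq2 passed those 5, Cd74, H2-Aa, H2-Ab1, H2-Eb1 and Ciita, against 3.12% of genes. With both subtypes alone in the fit, edgeR passed 3, Cd74, H2-Aa and H2-Eb1, against 12% of genes. Mac III lay wholly below Mac IV in 8 members and in 27.9% of all genes, and the median log2 fold change was -5.94 over the members. The 8 include H2-Ob, at 0.00956 and 0.0467 CPM in Mac III. Without the 2 Mac IV cells with all B cell markers, Mac IV held 0.304 and 0.00860 CPM of it and overlapped Mac III. Without the 5 cells that carry all B cell markers, H2-Aa passed (adjusted p = 0.0139, edgeR; the range over all alternatives was 5.06e-13 to 1.0).

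In Mac V the chains were again near 0, while Cd74 and H2-DMa were not. H2-Ab1 had 2 reads in the female and 1 in the male Mac V library, too few for a fold, against 1739 and 443 CPM in Mac IV (adjusted p = 0.116, edgeR). Cd74 was 68.7 and 170.6 CPM (-3.46, SE 2.06), and 25 of 66 female and 10 of 45 male Mac V cells held it at 50 CPM or more. In the male library 1 cell held 64.4% of the Cd74 reads. H2-DMa, with 243.9 and 501 CPM, overlapped Mac IV. By edgeR 0 members passed, against 0.167% of genes, and 4 had an unadjusted p under 0.05, against 10.6%. DESeq2 passed 3, H2-Aa, H2-Ab1 and Ciita, against 5.79%, and edgeR with both subtypes alone passed 2, Cd74 and H2-Ab1, against 4.37%. Mac V lay wholly below in 8 members and in 30.5% of all genes. The 8 include H2-Ob, at 0.0239 CPM in the female and 0 in the male. Without the 2 Mac IV cells with all B cell markers, Mac IV held 0.304 and 0.00860 CPM of it and overlapped Mac V. Without the 5 cells with B cell markers, H2-Ab1 passed (adjusted p = 0.0325, edgeR; the range over all alternatives was 1.40e-12 to 0.885).

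The Mac II and Mac IV libraries overlapped in all members but 3. H2-DMa was higher in both Mac II libraries (log2 fold change 1.48, SE 1.91), as was H2-DMb2 by a small margin, and H2-Ob, with 0 reads in Mac II, was at 1.01 and 2.65 CPM in Mac IV. Of those reads 69.8% in the female and 99.7% of the male ones came from the 2 Mac IV cells with all B cell markers, and without them the level was 0.304 and 0.00860 CPM. Of all genes 19.9% were higher in both Mac II libraries. By edgeR 0 members passed, against 0.0897% of genes, and 1, H2-Ob, had an unadjusted p under 0.05, against 8.22%. DESeq2 passed H2-Ob alone, against 4.23% of genes, and did so without those 2 cells too, when 29 and 1 reads were left in Mac IV (edgeR then gave an adjusted p of 0.718). With both subtypes alone in the fit edgeR passed 0, against 2.04%. Mac II lay wholly below in 1 member and in 28.4% of all genes.

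Genes that act before or after the members were read from 5 lists. In DC III against DC I and DC II 7.22% of all genes passed by edgeR, the share to set beside each list. Of those genes 435 were higher and 691 lower. Among 19 transcription regulators of class II 3 rose and none fell (list median 1.56, all genes -0.41). Irf1, an interferon response factor, was 1144 and 2242 CPM in DC III against 27.4 to 293.5 (log2 fold change 4.51, SE 0.88, adjusted p = 0.00362, edgeR). Spib, an Ets factor of B cells and plasmacytoid dendritic cells, rose as well (205.5 and 29.1 CPM, against 0 in DC I and 15.5 and 91.97 in DC II, so that DC III and DC II overlapped), and Pax5, a B cell factor, passed at 1.99 and 2.11 CPM. Without the 5 cells that carry all B cell markers, Spib held 30.8 CPM in male DC III and passed by edgeR (adjusted p = 0.00504) but not by DESeq2 (0.309). Pax5 then had 0 male reads left and an adjusted p of 0.0380 by edgeR and 0.00140 by DESeq2. Of 12 genes of surface turnover and costimulation 3 rose and 1 fell (list median 3.14). Cd274, which encodes PD-L1, was 223.4 and 79.5 CPM in DC III and 17.8 or less in the others, Pdcd1lg2, which encodes PD-L2, 32.4 and 13.2 against 0.0296 or less, and Cd81, a tetraspanin, rose by 2.38 (SE 0.51). March1, the ubiquitin ligase that removes class II from the surface, was 0 and 0.319 CPM in DC III against 70.8 to 168.9 (adjusted p = 0.0370, edgeR).

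Of 12 endosomal proteases and their partners 1 passed in DC III, where 7.22% of all genes did, the share for the lists below too. It was Ctsl, the cathepsin L gene, which fell to 0 reads in both libraries against 11.6 to 62.7 CPM (list median 0.61). Of 9 genes of the interferon gamma signal 2 rose, Irf1 and Gbp2, and 1 fell (list median 1.18). Gbp2 was 237.1 and 122.6 CPM in DC III, 0 in DC I and 174.5 and 12.7 in DC II, so that DC III and DC II overlapped. The one that fell was Ifngr1, a receptor chain, at 62.7 and 26.1 CPM against 496 to 952 (-3.69, SE 0.80, adjusted p = 0.00815, edgeR). Of 3 class II receptors and other class II chains 1 rose: H2-Eb2, an I-E beta-like gene, was 40.9 and 92.9 CPM in DC III and 2.58 or less in DC I and DC II.

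In B cells against DC I and DC II 1.10% of all genes passed by edgeR, the share to set beside each list. Of 19 transcription regulators 3 rose there, all B lineage factors (list median 0.46, all genes 0.13). They were Pax5 (322.7 and 245.5 CPM), Spib (767 and 487) and Ebf1 (530 and 322.1). Without the 5 cells that carry all B cell markers, Spib had an adjusted p of 0.334 by DESeq2 and 0.00709 by edgeR. Cst3, the cystatin C inhibitor of cathepsins, fell by 4.76 (SE 0.57) to 667 and 1088 CPM, the only one of the 12 protease genes to pass (list median -0.97). Cd9, a tetraspanin, fell by 2.00 (SE 0.37) among the 12 surface genes (list median 0.39). Of the 9 interferon gamma genes Ifng itself rose, to 14.5 and 40.1 CPM against 0 reads (list median -0.46). Jak2, a receptor-associated kinase, fell by 3.29 (SE 0.76). None of the 3 receptors and other chains passed (list median 2.12).

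In the macrophages few of these genes passed by edgeR. Over all genes 0.263% passed in Mac III, 0.167% in Mac V and 0.0897% in Mac II, each against Mac IV. In DC I against DC II it was 0.244%. Cst3 fell by 2.498 (SE 0.53) in Mac III against Mac IV, to 713 and 811 CPM, as did Ctse, the cathepsin E gene, at 0.00956 and 0.00425 CPM (2 and 1 reads) against 5.08 and 2.45. Cd9 rose in Mac III (3.45, SE 0.43, to 5424 and 5203 CPM) and in Mac II (2.74, SE 0.41, to 3363 and 3155), both against the same Mac IV libraries. No gene of the 5 lists passed in Mac V against Mac IV or in DC I against DC II. The list medians in Mac III were -0.51 for transcription, -0.84 for proteolysis, -0.27 for surface turnover, -0.92 for interferon gamma and -3.44 for the 3 receptors and chains, beside 0.00235 over all genes.

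Likeness was measured as the Pearson correlation over the 30 libraries with the mean log2(CPM + 1) of Cd74, H2-Aa, H2-Ab1 and H2-Eb1, among 7726 genes at 50 CPM or more in at least 1 library of each animal. Ciita came first after those 4 genes themselves (0.89), followed among the members by H2-DMb2 (0.83), H2-DMb1 (0.71), H2-DMa (0.61), H2-Ob (0.59) and H2-Oa (0.34, rank 783). The other genes most like the 4 were Cxcl16, a chemokine (0.84), Cst3 (0.80), Batf3, a factor needed for DC I development (0.79), Ly86 (0.77), Aif1 (0.77), Fgd2 (0.76), Cd40, a costimulatory receptor (0.75), Plekho1 (0.75), Fchsd2 (0.75) and Cd83, which stabilises class II at the surface (0.75). Most like Ciita outside the members were Kmo (0.79), Hepacam2 (0.78) and Cyp2s1 (0.74). Libraries of 1 subtype from the 2 animals are not independent points, so these values describe likeness only.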

How the data were processed

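Single cells of the distal lung were sorted into plates and sequenced with a transposase-based protocol, per the labels. The submitters' processing notes name STAR 2.5.2b and HTSeq 0.10, and a human build (GRCh38) although the cells are mouse. The authors' mouse build is not given in the sources used here, so positions come from GENCODE M21. The deposited values are read counts per gene and cell, without molecular identifiers. Doublets were not called; cells with all 4 B cell markers were left out in an alternative chosen after seeing the data.

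Counts were summed per animal and subtype (15 subtypes, 30 libraries, at least 5 cells each) and tested with edgeR 4.0.16 in R 4.3.3 (quasi-likelihood, TMM, 1 coefficient per subtype). Of 18072 genes 15600 passed its filter on low counts, all 10 members included. The biological coefficient of variation was 1.15, and genes were called at an adjusted p (Benjamini-Hochberg, over all genes tested) under 0.05. Both mice gave cells to each of these subtypes, so the summed libraries pair by animal. Over 105 pairs of subtypes the correlation of same-animal deviations ran from -0.0384 to 0.131 (median 0.0470). DESeq2 1.42.0, other scalings, a replicate block, only the compared subtypes, only the sequencing run both animals share, cells scaled alike and left-out libraries were alternatives. The test was tested on simulated data.

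Members, lists and tests were chosen with earlier results of these data known. All 10 members are named in every comparison. Of the pathway lists at most the 3 genes with the largest change per direction are named, and of likeness the 10 most alike, or the first few.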

Additional observations from a re-analysis of the deposited data

Results flagged for a closer look

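In DC I against DC II the 2 animals moved in opposite directions by more than 1.5-fold in 2 members. For H2-Oa the difference in log2(CPM + 1) was 1.02 in the female and -0.61 in the male. For Ciita it was -0.65 in the female and 1.18 in the male. Whether the animals differ was not tested, since each has 1 library per subtype.

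Some members were found in both animals at 50 CPM or more in subtypes that entered no comparison. H2-DMa stood at 55.1 CPM in female and 56.5 CPM in male T cells, where 4 of 26 and 3 of 20 cells held it. In mast cell II it was 54.8 CPM and 148.25 CPM. H2-Oa, an H2-DO chain, stood at 204.3 CPM in female and 103.9 CPM in male IL cells, and at 178.5 CPM and 321.5 CPM in basophils, while H2-Ob had 0 reads in IL cells and in male basophils and 37.6 CPM in female basophils.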

How the results depend on the processing

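With edgeR and all 15 subtypes 0 members passed in each of the 6 comparisons, and with the animal as a replicate block the count was 0 in all 6 as well. DESeq2 raised it to 5 in Mac III against Mac IV, 3 in Mac V, 1 in Mac II, 2 in DC III and 1 in B cells. Only the compared subtypes in the fit gave 3 in Mac III, 2 in Mac V, 4 in DC III and 6 in B cells. Without the cells carrying all B cell markers (chosen after seeing the data) the count was 1 in Mac III (0.282% of all genes) and 1 in Mac V (0.224%), and with only the shared sequencing run it was 2 in DC III (H2-DMa and Ciita, against 3.99% of all genes), where 2 female DC III and 4 female DC I cells were left, fewer than the 5 otherwise asked for. DESeq2 without the cells carrying all B cell markers (chosen after seeing the data) gave 5 in Mac III, 4 in Mac V, 1 in Mac II, 4 in DC III and 1 in B cells. Over all genes and with all cells, DESeq2 passed 3.12% in Mac III, 5.79% in Mac V and 4.23% in Mac II. It passed 24.8% in DC III and 10.3% in B cells. The shares of all genes without those cells are not given here. Leaving out 1 library at a time left a subtype with 1 library, so only fold changes are read from it. For H2-DMb1 in DC III they ran from -19.4, without the male DC III library, to -5.33. The female library that was left then held 0 reads of H2-DMb1. These alternatives change the spread estimate or the cells; the cause was not tested. The share of class II rich Mac II cells was 12.8% at 1000 CPM and 21.1% in the shared run, and that of Mac V cells 0% and 2.70%.

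Of 880 fold changes of members under the alternatives 805 kept direction and call, 47 became calls and 28 changed direction, none of which passed by any alternative. In Mac V against Mac IV these were H2-DMa, 0.0413 in the shared run and -0.68 to 0.31 without 1 library, and H2-Oa, 0.00303 without cells with B cell markers and -2.40 to 0.67 without 1 library. In DC III H2-Oa was 0.0218 with cells scaled alike and -2.11 to 0.73 without 1 library. In DC I against DC II Cd74 was -0.0240 with DESeq2 and its size factors and -0.0306 with DESeq2 without cells with B cell markers (-0.25 to 0.39 without 1 library), H2-DMb1 0.30 with cells scaled alike (-0.41 to 0.25), H2-Oa 0.0274 in the shared run (-0.88 to 1.81) and Ciita -0.0123 in the shared run (-0.37 to 1.21). In Mac II against Mac IV only left-out libraries did so: Cd74 -3.82 to 0.15, H2-DMb1 -1.71 to 0.57, H2-Oa -5.03 to 2.22 and Ciita -1.06 to 2.18.

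With the mean over cells in place of the summed reads 14 of 150 levels moved by more than the SD between animals, and with only the shared run 17 of 150. H2-Oa in B cells was 171.6 CPM from summed reads and 309.01 as a mean over cells. H2-Ab1 in mast cell II fell from 54.6 to 26.9 CPM in the shared run, and Cd74 and H2-DMa in NK cells to 0. The spread between the 2 animals limits the precision, so a member that did not pass is not shown to be equal.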
